A study of Mus musculus with 2 samples.

Results

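NCC, the thiazide-sensitive sodium chloride cotransporter of the distal convoluted tubule (DCT), was examined in kidney RNA together with the genes that control it. The set held 10 genes: *Slc12a3*, which encodes NCC, the kinase genes *Wnk1*, *Wnk4*, *Stk39* and *Oxsr1*, the ubiquitin ligase genes *Klhl3* and *Cul3*, the basolateral potassium channel gene *Kcnj10*, and *Sgk1* and *Nedd4l* of the aldosterone response. Every probe that carries one of these symbols as its gene name was taken, which gave 13 probes for the 10 genes, out of 39429 gene probes with 31829 gene names. *Wnk1*, *Oxsr1* and *Nedd4l* had 2 probes each and the other 7 genes had 1.

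NCC carries sodium and chloride from the urine into DCT cells, and loss of its gene in humans causes Gitelman syndrome, a salt-wasting disorder with low blood magnesium. The WNK kinases activate SPAK (the product of *Stk39*) and OSR1 (the product of *Oxsr1*), which phosphorylate NCC and switch it on, while the ligase built from KLHL3 and CUL3 marks the WNK kinases for degradation. The potassium channel encoded by *Kcnj10* sets the membrane voltage and so the chloride level that the WNK kinases sense, and SGK1 inhibits the ubiquitin ligase NEDD4-2 (the product of *Nedd4l*), which removes sodium transport proteins from the cell surface. Much of this control acts on protein phosphorylation and degradation, which an RNA measurement does not see.

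Renal RNA of the knockout (genotype *Cnnm2* fl/fl;*Six2-Cre*) was compared with that of the control (genotype *Cnnm2* +/+;*Six2-Cre*), both from animals 2 months old. *Cnnm2* encodes a membrane protein of magnesium handling that is abundant in the DCT, and the comparison asked which renal transcripts differ without it in a study of blood pressure. Both genotypes carried *Six2-Cre*, a GFP-fused recombinase made in the embryonic kidney, so an effect of the transgene itself is shared by both. The study states a C57BL6/J background for its mice and age and sex matching within each experiment, with both sexes in use. The sex and the number of the mice behind these arrays are not given in the sources used here. Cells that do not descend from *Six2*-expressing nephron progenitors, such as the collecting duct, keep the gene, and whole-kidney RNA mixes all of these cells.

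Each of 2 arrays carried both genotypes, one in each dye. Array 1 had the knockout RNA in Cy5 (red) and the control RNA in Cy3 (green), and on array 2 the dyes were exchanged. Nothing states whether both arrays carried the same RNA, so they were counted as 1 replicate of each genotype. No result rests on a test between genotypes, and tests that take the arrays as replicates are given in the closing section only as alternatives. Values are given as the processed signal (intensity after the scanner software corrected background and dyes) and as the log2 ratio of knockout over control. The SD is that of the 2 arrays (n = 2) and covers labeling and hybridization, not differences between animals. With 1 array in each dye orientation, it also holds any difference between the dyes, which largely cancels in the mean. A gene on which the dyes differ strongly thus has a large SD, whatever the difference between the genotypes.

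The label check came first. *Cnnm2* gave a processed signal of 626 in the knockout and 4620 in the control on array 1, and 591 and 3247 on array 2. Its log2 ratio was -2.67 ± 0.30 (SD, n = 2 arrays), 6.36-fold lower in the knockout and on the side that the dye labels give on both arrays. For the other genes the arrays often disagreed. Of the 19706 genes whose signal cleared background in at least 1 genotype, the same one on each array, 27.7% moved the same way on both arrays, and Pearson's r between the arrays was -0.513 (Spearman's rho -0.563), across genes, which share the same 2 arrays and are not independent. Each value is therefore given for each array before its mean. The 290 probes printed 10 times on each array had a median SD between spots of 0.037 on the log2 scale on both arrays, 0 spots were saturated, and 141 and 175 of 43020 gene spots were marked as uneven or outlying. Of the gene spots, 68.0% (array 1, knockout) and 67.6% (array 2, control) were well above background in Cy5. In Cy3 the shares were 63.0% (array 1, control) and 62.6% (array 2, knockout), so they followed the dye.

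Probes are 60 bases long, and their base composition is shown because the difference between the dyes tracked it, as described further on. Given here 5′ to 3′ with G and C in capitals are the probe of the transporter, a probe of each WNK kinase and the probes of both ligase parts, with mm9 positions from the files:
Slc12a3, chr8:96875636-96875695, plus strand: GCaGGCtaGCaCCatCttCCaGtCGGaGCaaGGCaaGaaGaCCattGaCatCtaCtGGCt
Wnk1, chr6:119921070-119922819, minus strand: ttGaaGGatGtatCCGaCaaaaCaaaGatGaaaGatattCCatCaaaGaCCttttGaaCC
Wnk4, chr11:101138198-101138364, plus strand: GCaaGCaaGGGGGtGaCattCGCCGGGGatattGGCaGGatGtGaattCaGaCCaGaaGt
Klhl3, chr13:58110639-58110698, minus strand: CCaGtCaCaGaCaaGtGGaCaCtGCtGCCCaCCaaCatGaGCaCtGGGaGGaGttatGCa
Cul3, chr1:80268109-80268168, minus strand: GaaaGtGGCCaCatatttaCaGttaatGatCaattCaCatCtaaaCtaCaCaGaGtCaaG
The probes of *Slc12a3*, *Wnk4* and *Klhl3* held 32, 32 and 33 G and C bases, and the probes of *Wnk1* and *Cul3* shown here held 21 each. The *Wnk1* and *Wnk4* probes lie on stretches of 1750 and 167 bases of the genome, so each crosses an intron. No gene annotation of this build was used here, so the exon or untranslated region of each probe is not given.

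None of the 10 genes reached a 2-fold mean change with the same direction on both arrays (0 of 10, against 0.599% of the 19706 genes), and none reached 1.5-fold (0 of 10, against 2.06%). With backgrounds this low, a count of 0 does not set the genes apart from others. A smaller change counted as beyond the spread where both arrays moved the same way and the mean log2 ratio was larger in size than the SD of the 2 arrays. By this measure 5 of the 10 genes differed, against 20.7% of all genes, and these were also the 5 of 10 with 1 direction on both arrays, against 27.7%. *Sgk1* was higher in the knockout (1 of 10, against 8.93% of all genes), and *Wnk1*, *Wnk4*, *Kcnj10* and *Nedd4l* were lower (4 of 10, against 11.8%). In the other 5 genes the arrays pointed in opposite directions. *Stk39*, *Oxsr1* and *Cul3* were above 0 on array 1 and below 0 on array 2 (3 of 10, against 38.8% of all genes), and *Slc12a3* and *Klhl3* the other way round (2 of 10, against 33.5%). The median of the 10 mean log2 ratios was -0.21, beside -0.0080 over all genes, and 8 of the 10 means were below 0, beside 52.3% of all genes.

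**Figure D1:**
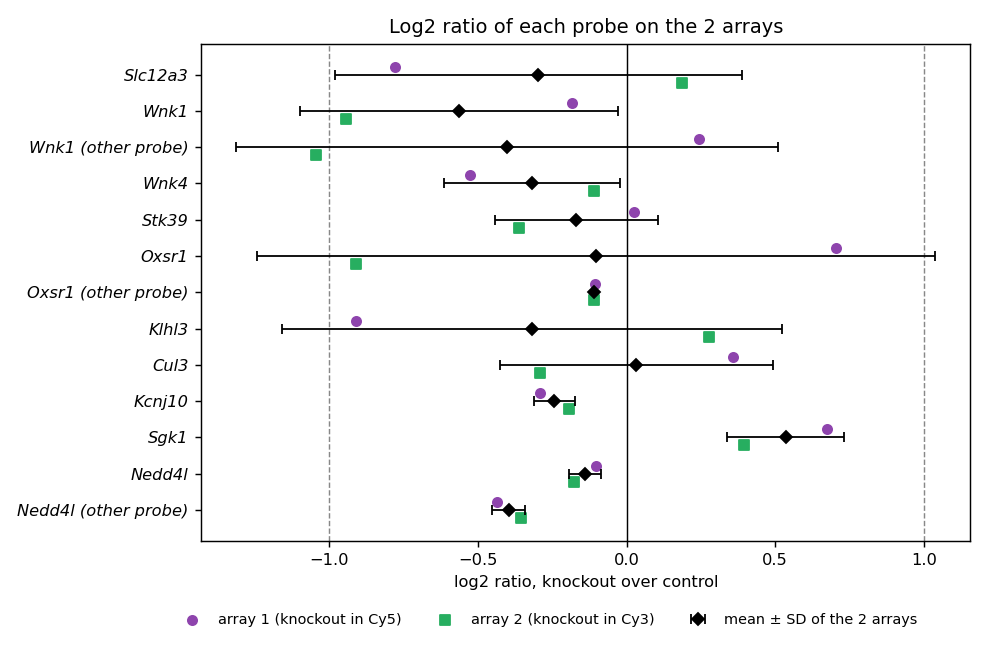
Log2 ratio of knockout over control (x axis) for each of the 13 probes (y axis), on array 1 (circles), on array 2 (squares) and as the mean with the SD of the 2 arrays (diamonds and bars); dashed lines mark 2-fold. The means of Sgk1, Kcnj10 and both Nedd4l probes stand clear of 0 relative to their bars, whereas the bars of Slc12a3, Klhl3, Cul3 and the brightest Oxsr1 probe cross it.

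The transcript of NCC itself gave no settled direction. *Slc12a3* had a processed signal of 1779 in the knockout and 3055 in the control on array 1, and of 2621 in the knockout and 2303 in the control on array 2. The knockout signal was thus 1.72-fold lower on array 1 and 1.14-fold higher on array 2, and the signals of the genotypes overlapped. The log2 ratios were -0.78 and 0.19, with a mean of -0.30 ± 0.68 (SD, n = 2 arrays), smaller than the spread. Means at least this large in size were seen for 10.6% of all genes. All 4 signals were far above background (2399 to 4709 before correction, over a local background of 42 or less), so the probe was not dim. The paper measured NCC as protein, by immunoblot of kidney lysates. It reports no marked effect of *Cnnm2* deficiency on NCC or on its phosphorylated form. Those are protein levels, whereas the values here are of RNA.

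Several other transcripts of the DCT were lower in the knockout on both arrays. Of 10 DCT marker genes 9 were measured, the exception being *Tfap2b*, and 5 of the 9 were lower in the knockout beyond the spread while 0 were higher (against 11.8% and 8.93% of all genes). These were *Pvalb*, a calcium-binding protein, with a mean log2 ratio of -1.75 ± 0.33, *Trpm6*, the magnesium channel, with -1.40 ± 0.24, *Calb1*, the calcium buffer calbindin, with -1.01 ± 0.34, *S100g*, another calcium buffer, with -0.51 ± 0.0012, and *Sall3*, a transcription factor, with -0.39 ± 0.34 (SD, n = 2 arrays each). Among these, *Sall3* alone failed the stricter filter, which asks that the knockout and the control each clear background. Its mean also passed the spread only narrowly, so its decrease is less certain than the others. Apart from the arrays, the paper reports less *Trpm6* transcript by quantitative PCR in *Cnnm2*-deficient kidneys. It also reports less TRPM6 protein by immunoblot and immunofluorescence. The paper lists *Pvalb* and *Trpm6* as lower in the knockout from these same arrays, and the marker list was chosen with earlier results known. The count of 5 of 9 was thus partly fixed in advance. Setting it against the shares of all genes is therefore not an independent test. Summed over the 9 markers, the knockout signal was 81930 against 103600 for the control on array 1, and 57150 against 81640 on array 2. Such a sum is weighted toward the brightest probes, since signal levels of different probes are not comparable. The 4 DCT markers not beyond the spread had ratios of opposite sign on arrays 1 and 2. They were *Trpv5* (0.08 and -0.47), *Slc8a1* (0.077 and -0.040), *Egf* (0.16 and -0.46) and *Emx1* (-1.1 and 0.28). *Slc12a3* was likewise not among the genes lower on both arrays with the processed signals, since its array 2 ratio was above 0. With background-subtracted signals centred on the median that ratio was -0.013, so its sign depended on the processing. In bulk kidney RNA, fewer cells of a type and less RNA per cell cannot be told apart, and the part of DCT abundance in the values of NCC and its regulators was not tested.

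**Figure D2:**
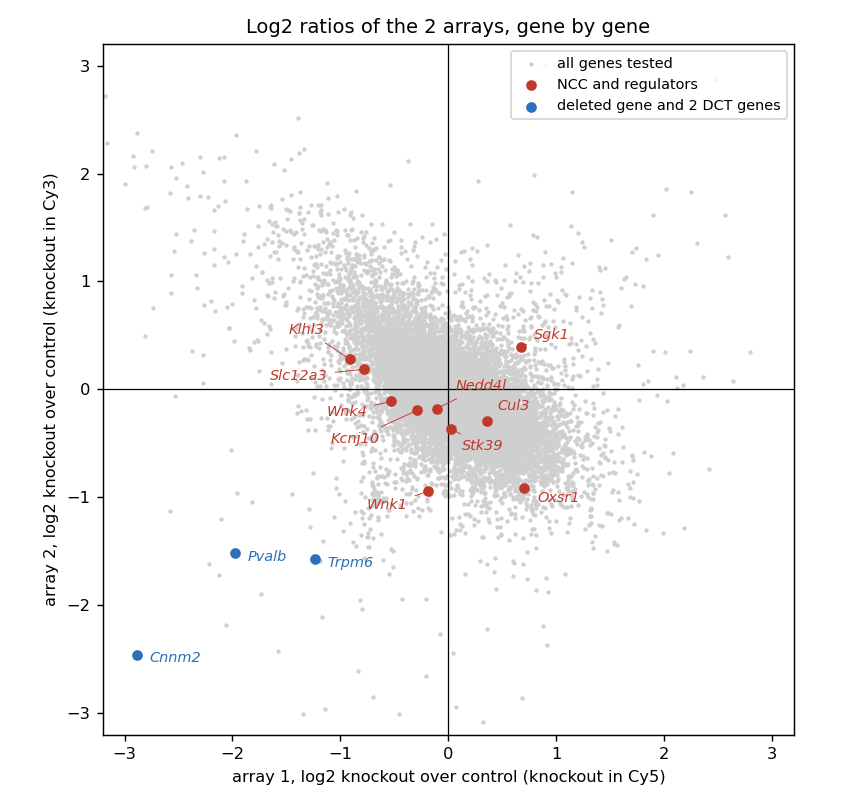
Log2 ratio of knockout over control on array 1 (x axis) and array 2 (y axis), 1 point per gene (19686 of the 19706 genes; 20 lie outside the axes). Genes with the same direction on both arrays lie at lower left and upper right; most points run from upper left to lower right, where the arrays disagree. Slc12a3 and Klhl3 lie at the upper left, Oxsr1, Cul3 and Stk39 in the lower right, and Sgk1 alone of the 10 genes (red) in the upper right, while Cnnm2, Pvalb and Trpm6 (blue) lie at lower left.

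Both WNK kinase genes were lower in the knockout on the brightest probe. *Wnk1* encodes the kinase at the head of the cascade and also a short kidney-specific form that lacks most of the kinase domain. Its brightest probe read 9213 in the knockout and 10473 in the control on array 1, and 6710 and 12900 on array 2. Both knockout signals were below both control signals, but the gap was uneven, 1.14-fold on array 1 and 1.92-fold on array 2. The mean log2 ratio was -0.56 ± 0.54 (SD, n = 2 arrays), 1.48-fold lower and only just beyond the spread. A mean at least this large in size was seen for 2.69% of all genes.

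The other *Wnk1* probe, 46704 bases away, read 1040 in the knockout and 879 in the control on array 1, and 653 and 1348 on array 2. Here the knockout was higher on array 1 and lower on array 2, with log2 ratios of 0.24 and -1.05 and a mean of -0.40 ± 0.91, within the spread. Both probes therefore gave a negative mean that rested mainly on array 2, and the decrease passed the spread on the brightest probe only. Which *Wnk1* transcript form each probe detects was not determined. A probe named *Hsn2*, which the RefSeq gene table lists as another name of *Wnk1* and which lies between both *Wnk1* probes, was looked at after its values were seen. It was dim, and its ratios of 0.50 (array 1) and -0.86 (array 2) averaged -0.18 ± 0.96, above 0 and then below 0 like those of the dimmer *Wnk1* probe.

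*Wnk4*, the other WNK kinase prominent in the DCT, read 1989 in the knockout and 2866 in the control on array 1, and 1819 and 1964 on array 2. The knockout signal was lower on each array, 1.44-fold on array 1 and 1.08-fold on array 2. The mean log2 ratio was -0.32 ± 0.30 (SD, n = 2 arrays), which passed the spread by a narrow margin, and 9.20% of all genes had a mean at least as large in size.

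The kinases that act directly on NCC showed no difference beyond the spread on their brightest probes. *Stk39*, which encodes SPAK, read 1368 in the knockout and 1345 in the control on array 1, and 975 and 1255 on array 2. The genotypes were nearly equal on array 1 and the knockout was 1.29-fold lower on array 2, giving a mean log2 ratio of -0.17 ± 0.27. *Oxsr1*, which encodes the related kinase OSR1, read 957 in the knockout and 588 in the control on array 1, and 468 and 879 on array 2, so that the array ratios of 0.70 and -0.91 nearly cancelled (mean -0.10 ± 1.14). This was the widest gap between the arrays among the 10 genes.

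The other *Oxsr1* probe, 1740 bases from the brightest, behaved differently. It read 537 in the knockout and 578 in the control on array 1, and 453 and 488 on array 2, a decrease of the same size on both arrays (log2 ratios of -0.11 and -0.11, mean -0.11 ± 0.00085). The means of both *Oxsr1* probes differed by 0.0058 on the log2 scale, although their ratios differed by 0.81 on array 1 and by -0.80 on array 2. Averaging the exchanged dyes thus brought this pair of probes together. The dimmer probe had passed the spread on a change of only 1.08-fold.

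The ligase parts showed no difference beyond the spread. *Klhl3*, the adaptor that binds WNK kinases, was the dimmest of the 10 genes, with a raw signal of 82.7 to 92.3 over a local background of at least 33.5. After correction the knockout read 22.4 and the control 42.1 on array 1, and on array 2 the knockout read 28.0 and the control 23.1. The order of the genotypes turned between the arrays, with log2 ratios of -0.91 and 0.28 and a mean of -0.32 ± 0.84. *Cul3*, the scaffold of the ligase, stood far above its background and read 1381 in the knockout and 1078 in the control on array 1, and 1092 and 1337 on array 2. Its log2 ratios of 0.36 and -0.29 gave the mean nearest to 0 of the 10 genes, 0.03 ± 0.46.

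*Kcnj10*, the DCT channel whose loss in humans causes a salt-wasting tubulopathy with epilepsy and deafness, was slightly lower. With the processed signals the decrease was similar on both arrays. It read 3446 in the knockout and 4218 in the control on array 1, and 3242 and 3712 on array 2, and both knockout signals were below both control signals. The decreases of 1.22-fold and 1.14-fold gave a mean log2 ratio of -0.24 ± 0.068 (SD, n = 2 arrays). The SD was among the smallest of the 10 genes, and 15.4% of all genes had a mean at least as large in size.

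*Sgk1*, a kinase induced by aldosterone and glucocorticoids, was the one member that was higher in the knockout. It read 7255 in the knockout and 4548 in the control on array 1, and 4872 and 3704 on array 2. Both knockout signals were above both control signals, by 1.60-fold on array 1 and 1.32-fold on array 2. The mean log2 ratio was 0.53 ± 0.20 (SD, n = 2 arrays), 1.45-fold higher in the knockout, and 3.02% of all genes had a mean at least as large in size.

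*Nedd4l*, the target of SGK1 in this pathway, was lower on both of its probes. The brightest read 4179 in the knockout and 4487 in the control on array 1, and 3591 and 4060 on array 2, with log2 ratios of -0.10 and -0.18 (mean -0.14 ± 0.053). The other, 4614 bases away, read 203 in the knockout and 274 in the control on array 1, and 171 and 219 on array 2, with log2 ratios of -0.43 and -0.36 (mean -0.40 ± 0.055). Both probes moved the same way on both arrays, but the size differed between them by 0.26. Over the 3296 genes with 2 probes the median gap between the means of both probes was 0.097. By the dimmer probe the decrease was 1.32-fold.

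**Figure D3:**
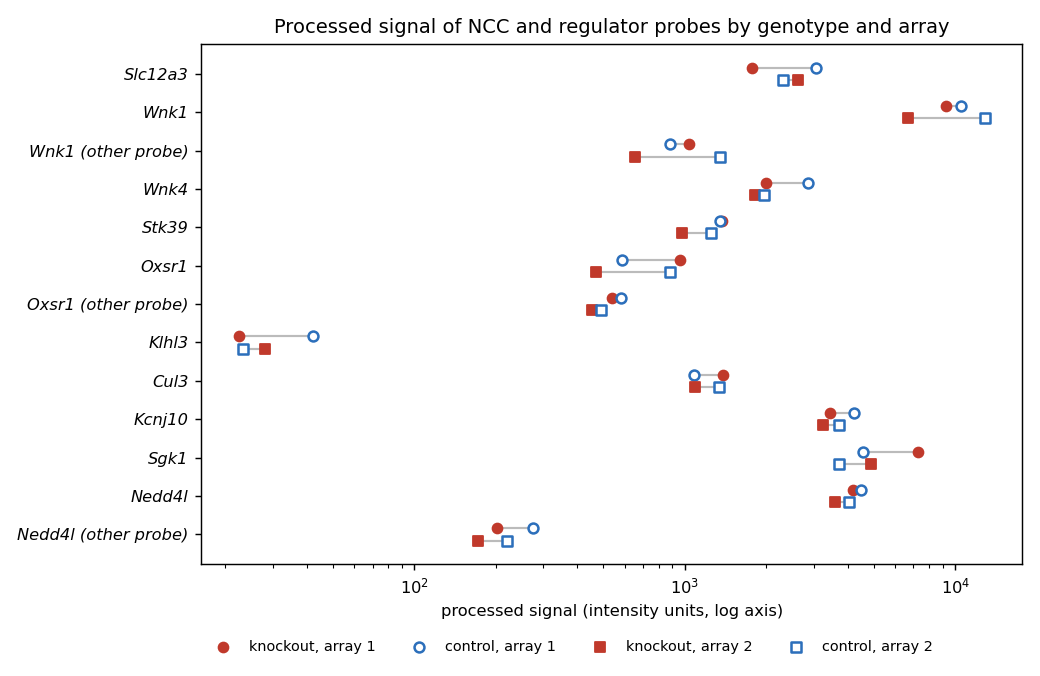
Processed signal (x axis, intensity units on a log axis) of each of the 13 probes (y axis) in the knockout (filled) and the control (open) on array 1 (circles) and array 2 (squares), with a line joining the genotypes of an array. For Sgk1 both knockout signals lie right of both controls and for Kcnj10 both lie left, while for Slc12a3, Oxsr1 and Cul3 the order of the genotypes turns between the arrays. Levels of different probes are not comparable.

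The difference between the arrays followed the base composition of the probes, as a description over 24594 probes that share the same 2 arrays. A dye contrast, array 1 minus array 2 divided by 2, is positive where a probe read higher in Cy5. It was weakly correlated with the number of G and C bases at r = -0.243, whereas the mean of the arrays was not (r = -0.0066). The bases did not share this evenly. Taken singly, T gave r = 0.247 and C -0.191, while G gave -0.0803 and A -0.0333. Among the 13 probes the 3 richest in G and C, those of *Slc12a3*, *Wnk4* and *Klhl3*, had dye contrasts of -0.48, -0.21 and -0.59. Over all probes the median dye contrast was -0.128 with 33 or more G and C bases, the bin of *Klhl3*, -0.0989 with 30 to 32, the bin of *Slc12a3* and *Wnk4*, and 0.0889 with 21 to 23. *Klhl3* and *Slc12a3* lay below the lower quartiles of their bins (-0.406 and -0.338), and *Wnk4* lay above it. Of the 10 other probes 8 were above 0, up to 0.81 for the brightest *Oxsr1* probe, which at 27 G and C bases lay far from the median of its bin (-0.0156), and those of *Kcnj10* and the dimmer *Nedd4l* probe lay just below 0. Base composition moved with the dye contrast, and its part in any one of these values was not tested.

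**Figure D4:**
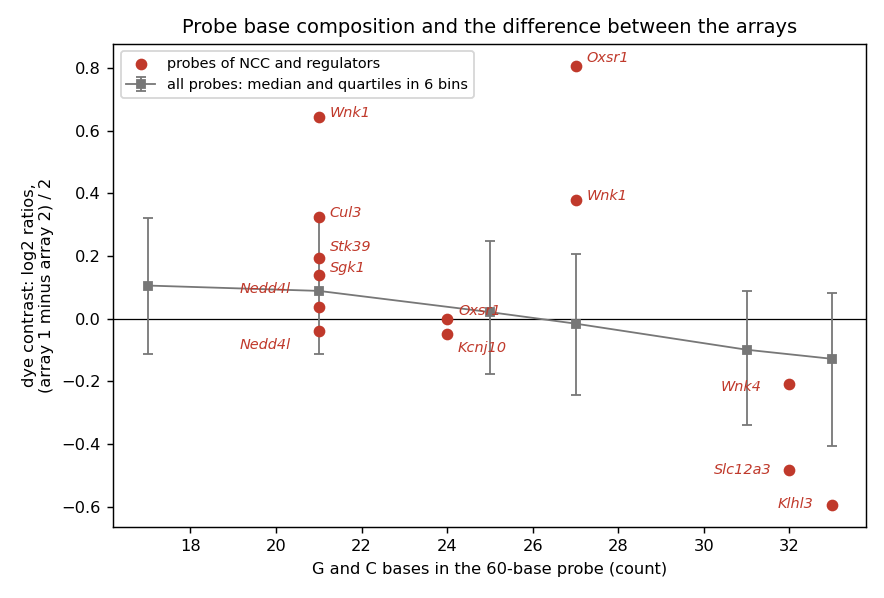
Dye contrast, the log2 ratio of array 1 minus that of array 2, divided by 2 (y axis; positive values are higher in Cy5), against the number of G and C bases in the 60-base probe (x axis), for the 13 probes (red) and as the median and quartiles of all 24594 probes in 6 bins (grey). The grey medians decline from 0.106 to -0.128, and Slc12a3, Wnk4 and Klhl3 lie at the lower right.

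Of 18 genes that work with the kinases or the ligase (other WNK kinases, the SPAK and OSR1 adaptors of the *Cab39* pair, neddylation enzymes, protein phosphatases and their inhibitor) 17 were tested, the exception being *Wnk3*. Beyond the spread 1 was higher and 2 were lower, and the median of the 17 means was 0.03. With 20.7% of all genes beyond the spread, these counts do not set the partners apart. *Wnk2*, a further WNK kinase, was the highest at 0.17 ± 0.029. *Ppp1r1a*, the inhibitor of protein phosphatase whose activity favours NCC phosphorylation, was the lowest at -0.25 ± 0.054, and *Cab39*, which encodes an activator of SPAK and OSR1, stood at -0.24 ± 0.093.

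Of the 6 other cotransporters of the SLC12 family, 0 were higher and 1 was lower beyond the spread (against 8.93% and 11.8% of all genes), with a median of -0.016. *Slc12a1*, which encodes the furosemide-sensitive cotransporter of the thick ascending limb, had the highest mean, 0.16 ± 1.11, but its array ratios of 0.95 and -0.62 pointed in opposite directions. *Slc12a5*, a potassium chloride cotransporter, had the lowest at -0.25 ± 0.34, and *Slc12a7*, of the same branch, was the one lower beyond the spread at -0.10 ± 0.033.

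Of 17 further genes of SGK kinases, corticosteroid receptors, their kinases and targets, 0 were higher and 2 were lower beyond the spread (against 8.93% and 11.8% of all genes), with a median of -0.026, which does not set them apart. *Tsc22d3*, a glucocorticoid-induced gene, had the highest mean, 0.25 ± 0.43, from array ratios of 0.55 and -0.05. *Scnn1g*, which encodes a subunit of the epithelial sodium channel and is an aldosterone target in some segments, had the lowest at -0.31 ± 0.072, and *Sgk2* stood at -0.03 ± 0.026.

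Markers of other cells were counted in the same way, beside 8.93% of all genes higher and 11.8% lower beyond the spread. By this measure all 4 urothelium markers were higher in the knockout, with summed signals of 994 in the knockout and 669 in the control on array 1 and of 971 and 620 on array 2, at a low level. Of the 4 podocyte markers 3 were lower and 0 higher (summed signals of 9427 and 13020 on array 1, and of 7761 and 8572 on array 2). Of 5 thick ascending limb markers 2 were lower and 0 higher, of 5 proximal tubule markers 1 was higher and 0 were lower, and of 4 principal cell and 4 intercalated cell markers 2 each were lower and 0 higher. Of 4 endothelial markers 1 was higher and 2 were lower, of 3 red blood cell and 3 fat markers 1 each was lower, and of the 3 immune markers tested none passed in either direction. Lists of 3 to 5 genes are too short for such counts to be set against those shares. The summed signals are weighted toward the brightest probes of each list. *Wnk1*, *Oxsr1*, *Cul3*, *Sgk1* and *Nedd4l* are used by many cell types, and the part of cell makeup in their values was not tested.

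Processed in 10 other ways with both arrays kept, the mean held its direction in every gene but *Oxsr1*. With normexp background correction and loess its mean was 0.0061 rather than -0.10, within the spread in both cases. *Klhl3* moved from -0.32 to -0.07 with the same settings, within its own spread of 0.84. *Sgk1* stayed beyond the spread in 10 of 10 alternatives with a mean of 0.53 in each, and *Kcnj10* and *Wnk4* also did so in 10 of 10. *Wnk1* passed in 8 of 10 and *Nedd4l* in 9 of 10. Only 4 of these alternatives, the background settings and the median over probes, recompute the ratios. The median over probes cannot move a gene with 1 probe. The remaining alternatives repeat the main values of the 10 genes to within rounding, so the counts out of 10 overstate the number of separate checks. With background-subtracted signals centred on the median, *Wnk1* gave 0.05 on array 1 and -1.19 on array 2 and *Nedd4l* 0.08 and -0.34, so neither kept 1 direction. Under that setting *Slc12a3* gave -0.58 and -0.013, lower on both arrays but within the spread (mean -0.29 ± 0.40). *Kcnj10* (-0.089 and -0.38) and *Sgk1* (0.87 and 0.19) became less even, though still beyond the spread. *Wnk4* (-0.34 and -0.28) became more even.

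**Figure D5:**
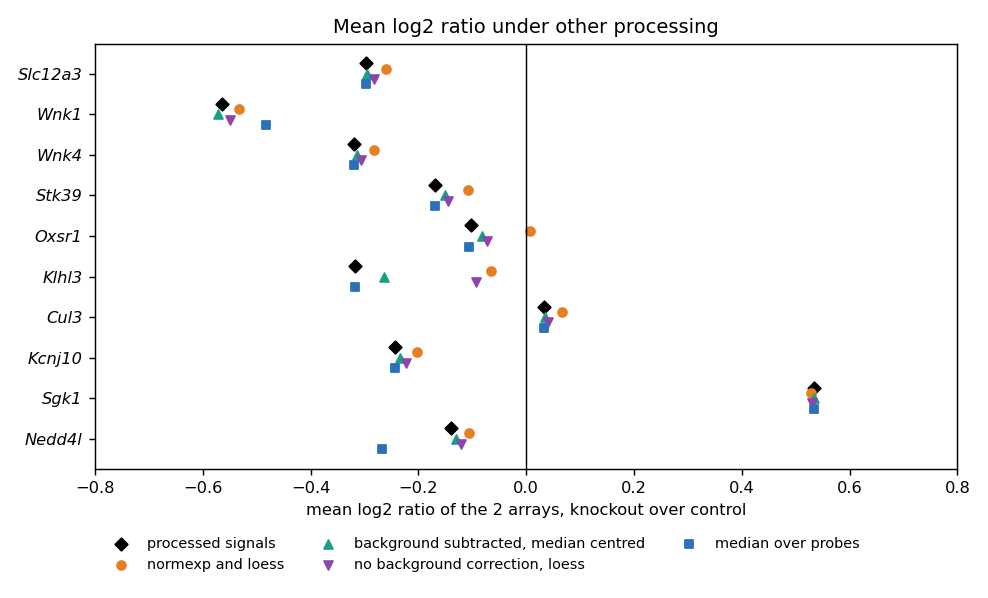
Mean log2 ratio of the 2 arrays, knockout over control (x axis), for each gene (y axis) with the processed signals (black diamonds) and with 4 other ways of processing (coloured symbols). Sgk1 lies near 0.53 in all 5, whereas Klhl3 moves from -0.32 to -0.07, Oxsr1 reaches 0 with normexp and loess, and Nedd4l moves to -0.27 with the median over its probes.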

How the data were processed

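Kidney RNA of 1 knockout and 1 control replicate was compared on 2 two-colour Agilent arrays with exchanged dyes. Files deposited by the authors come from Agilent's Feature Extraction program (10.7.3.1 in the headers, 10.5.1.1 in the submitters' processing notes) and hold the intensity of each channel and a log10 ratio of the red to the green channel. The matrix of the series holds the authors' log10 ratio of knockout over control, within 0.00492 of the scanner values after array 2 was turned, with column medians of 0. Ratios were turned to knockout over control by the dye labels.

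Deposited processed signals were taken to log2. Control spots and marked spots were left out, spots of a probe were averaged, and the brightest probe stood for its gene. Genes were used where 1 genotype, the same on each array, was well above background (19706). No result rests on a test between genotypes. All probes of the 10 genes are named, with *Cnnm2*, and of each pathway list the highest, the lowest and any gene with a 2-fold change; further genes of the lists, *Hsn2* and the named cell markers were named after seeing their values. The list of basolateral channels and pump is not reported here. The members and lists were chosen with earlier results of these data known. All 10 symbols matched the RefSeq gene table (GRCm38.p6), used for names only. Alternatives were normexp (offset 50) and loess, other background settings and filters, and, taking the arrays as replicates, limma 3.58.1 and the methods' paired t-test. Python 3.11.15, pandas 2.3.3 and R 4.3.3 were used. That there are only 2 arrays limits the precision.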

Additional observations from a re-analysis of the deposited data

How the results depend on the processing

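The number of the 10 genes counted as changed (2-fold in the main analysis) was 0 under all 17 alternatives run, the 1.5-fold rule among them. Some of these could not have returned more. The rule of 2-fold on each array is stricter than the main rule, and the adjusted tests called 0 of all genes. Filters and other copies of the ratios left the values of the 10 genes as they were, to within rounding. Over all genes the count of 118 became 15 with normexp and loess, 24 without background correction, 411 with no limit on dim probes (31819 genes), 64 where both genotypes had to be above background (18919 genes), 406 at 1.5-fold, 48 at 2-fold on each array, 700 to 857 with 1 array left out, 36 by the methods' t-test (p under 0.1 and 2-fold), and 0 by that test after Benjamini-Hochberg adjustment (486 at an unadjusted p under 0.05) and 0 by limma (adjusted p; 256 at an unadjusted p under 0.05). Of the 10 genes 0 had an unadjusted p under 0.05 by either method, the smallest being 0.0968 for *Sgk1* by limma's moderated test over all genes. The 5 genes beyond the spread became 3 with background-subtracted signals centred on the median. They became 4 with the median over probes, where *Wnk1* fell within the spread (-0.48 ± 0.72). The median of the 10 means, -0.21, became -0.11 with normexp and loess, -0.13 without background correction, -0.26 with the median over probes, and -0.19 to -0.14 with 1 array left out. In the 4 alternatives that recompute the ratios (3 background settings and the median over probes) 39 of 40 values of single genes moved by less than the SD of the arrays and 1, *Nedd4l* with the median over probes (-0.27), by more. With 1 array left out *Slc12a3* was -0.78 or 0.19.

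Every ratio pairs the genotypes within an array, as does the methods' t-test. A further block by replicate number could not be fitted with 1 array in each dye orientation. *Klhl3*, the dimmest of the 10 genes, is limited by signal over background, and limma and the t-test treat both arrays as replicates.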

Other observations

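A probe described in the files as similar to the thiazide-sensitive cotransporter, named *LOC100039113*, was not well above background in any channel on either array, and no ratio is given for it.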
